A study of Mus musculus with 4 samples.

Results

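Interferon-induced tumor cells were LLC cells that carried a high share of interferon-stimulated transcripts, and they were drawn from single-cell RNA sequencing of subcutaneous tumors. LLC (Lewis lung carcinoma) is a transplantable mouse lung cancer line, so every tumor here came from 1 line. Each cell barcode was read in raw unique molecular identifiers (UMIs), where 1 UMI stands for 1 captured messenger RNA molecule. A barcode entered the tumor gate with at least 2000 UMIs, at most 20% of them mitochondrial, at least 3 UMIs of Rhox5 (ENSMUSG00000095180), a homeobox gene that marks LLC cells in these libraries, and no UMI of the leukocyte gene Ptprc or the macrophage gene Csf1r. A tumor cell was called interferon-induced when Ifit1, Ifit3, Rsad2 and Isg15 together held at least 0.2% of its UMIs. The cells were thus chosen by measured UMIs, and whatever the rule reads is given below as a description. The rule took 675 of 26118 cells of the tumor gate, out of 39972 barcodes past the depth and mitochondrial limits and 55805 barcodes in all. The remaining 25443 cells of the gate are called other tumor cells.

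All tumors grew under the skin of C57BL/6N mice (C57/BL6N in the labels) aged 6 to 8 weeks and were taken 72 h after treatment. The radiation naive group (NT) was mock treated and consisted of 1 library that pooled 3 tumors. The hypofractionated radiotherapy group (RT) received 24 Gy in 3 fractions of 8 Gy on days 7 to 9 after injection and was sequenced as RT1, RT2 and RT3, with a single tumor in each of these 3 libraries. The NT library held 69667759 UMIs, RT1 78585759, RT2 108699844 and RT3 85660188, and the interferon-induced cells contributed 388051, 918776, 2546515 and 1574282 of these. NT could be compared with RT only by size, because 1 library gives no spread, and no p-value is given for that comparison.

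RT2 stood apart from the other libraries in 3 ways. Its gene table listed 18605 genes by symbol alone, its cells were the deepest, with a median of 9709.5 UMIs in other tumor cells against 6767 to 8370 elsewhere, and it carried the most immune transcripts within the tumor gate. Of its other tumor cells, 37.9% had no UMI of 12 further immune genes, against 56.3% in RT1, 70.6% in RT3 and 85.6% in NT. Between 182 and 277 barcodes were shared by any pair of libraries, which use the same barcode set, and no barcode was interferon-induced in both of its libraries. Results that rest on 1 library are given with and without it.

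Type I interferons bind the Ifnar1 and Ifnar2 receptor, whose kinases Jak1 and Tyk2 activate transcription factors such as Stat2. Together with Irf9 this forms a complex that binds the interferon-stimulated response element in promoters of antiviral genes, while interferon gamma acts through a separate gamma-activated site. Cells start the signal themselves when cytosolic sensors of RNA or DNA switch on Ifnb1, and irradiated tumor cells are a known setting for this. Of the 4 genes that define the cells, Ifit1 and Ifit3 are tetratricopeptide proteins that act against viral RNA, Rsad2 (viperin) is an antiviral enzyme, and Isg15 is a ubiquitin-like modifier.

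The promoters of these 4 genes all held the core letters of the interferon-stimulated response element. The core was searched as GAAA, any 2 bases and GAAA on both strands, from 250 bases before to 50 bases after each RefSeq start site (GRCm38.p6), and matches may overlap. It was present in 3.44% of 32851 promoter windows. The stretches below run 5′ to 3′ along each gene's own strand, and the capitals mark 1 match of the core or of its reverse complement. They lie at chr19:34640760-34640819 on the plus strand for Ifit1 (ENSMUSG00000034459), at chr19:34583348-34583407 on the plus strand for Ifit3 (ENSMUSG00000074896), at chr12:26456538-26456597 on the minus strand for Rsad2 (ENSMUSG00000020641) and at chr4:156200856-156200915 on the minus strand for Isg15 (ENSMUSG00000035692). Ifit3b, at chr19:34607744-34607803 on the plus strand, is shown because its letters equal those of Ifit3, its near-identical copy, so that reads of these genes may have been split between them.
Ifit1: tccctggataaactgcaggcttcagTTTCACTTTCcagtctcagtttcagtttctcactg
Ifit3: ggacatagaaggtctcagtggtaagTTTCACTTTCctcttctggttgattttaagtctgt
Ifit3b: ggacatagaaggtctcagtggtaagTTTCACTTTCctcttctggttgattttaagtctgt
Rsad2: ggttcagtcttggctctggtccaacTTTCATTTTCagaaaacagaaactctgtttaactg
Isg15: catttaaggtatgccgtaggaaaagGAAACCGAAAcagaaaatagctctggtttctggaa
The matches begin at base -104 of Ifit1, -156 of Ifit3, -188 of Ifit3b, -120 of Rsad2 and -72 of Isg15, counted from the start site. Further matches of the core begin at -85 of Ifit1, inside the stretch shown, at -122 of Ifit3 and at -154 of Ifit3b. The Isg15 promoter held 2 more, overlapping the one in capitals, at -78 and -66.

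Counted by gene, with any of its windows, the core was present for 3.99% of 27025 genes. Among the interferon lists it was present for 9 of the 10 matched genes that encode guanylate binding proteins and immunity-related GTPases, for 4 of 6 matched oligoadenylate synthetase genes and for 23 of 48 matched interferon-induced effector genes. It was found for 3 of 16 matched genes of nucleic acid sensing, 2 of 9 interferon transcription factors, 1 of 7 feedback genes and 0 of 8 receptors and kinases, and for 11 of 20 interferon ligand genes. Of 20 matched genes of MHC class I and peptide loading 5 held it, as did 2 of 9 chemokine genes and 0 of 23 cell cycle genes. The gamma-activated site, searched as TTCNNNGAA on both strands, was present in 8.30% of all windows, for 9.55% of all genes and for 6 of the 10 guanylate binding and GTPase genes. It was found for 10 of 20 ligand genes, 3 of 9 transcription factors, 8 of 48 effectors, 1 of 6 synthetases, 2 of 16 sensing genes, 1 of 7 feedback genes, 2 of 8 receptors and kinases, 2 of 20 MHC class I genes and 1 of 9 chemokine genes. Neither motif was in the windows of Ifnb1, Cmpk2, Oasl1 or Il6, and Ifit2 held only the second. These are matches of letters in a window and not measured binding sites.

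Interferon-induced cells were more frequent after radiotherapy. They were 50 of 6050 tumor cells in NT, or 0.826% (95% Clopper-Pearson interval 0.614 to 1.09), and 137 of 6475 in RT1, or 2.12% (1.78 to 2.5). In RT2 they were 274 of 6234, or 4.40% (3.90 to 4.93), and in RT3 214 of 7359, or 2.91% (2.54 to 3.32). The RT mean was 3.14% ± 1.16 (SD, n = 3), 3.80-fold the NT share and 2.31 percentage points above it. None of the RT intervals overlapped the NT interval, which covers counting error only and not the spread between mice. With every cell thinned to 2000 UMIs before the rule was applied, the shares were 0.988% in NT and 3.74% ± 1.24 in RT, and with cells that carried any of the 12 further immune genes left out they were 0.926% and 3.03% ± 1.46.

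**Figure D1:**
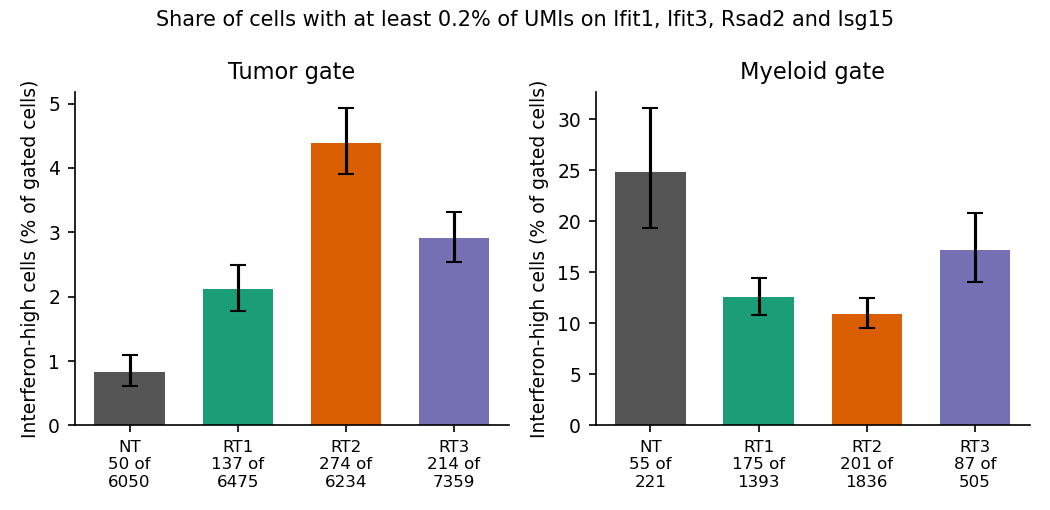
Share of cells past the interferon gate (percent, vertical axis) in each library for the tumor gate (left) and the myeloid gate (right), as bars with 95% Clopper-Pearson intervals. Tumor cells lie at 0.826% in NT and at 2.12% to 4.40% in RT, whereas the myeloid share was 24.9% in NT and 13.6% ± 3.26 in RT.

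The gate cut a continuous range and did not separate a distinct group. No UMI of the 4 genes was found in 18910 of the 26118 tumor cells. Just outside the limit, 177 cells held 0.15 to 0.2% of their UMIs on the 4 genes, and just inside it 145 cells held 0.2 to 0.25%. A further 206 cells held 0.25 to 0.4%, 212 held 0.4 to 0.8% and 112 held 0.8% or more. The highest cell of NT carried 1.20%, and those of RT1, RT2 and RT3 carried 3.59%, 3.11% and 5.19%. Despite being few, the interferon-induced cells held 43.6% of all UMIs of the 4 genes within the tumor gate in NT, 56.2% in RT1, 63.5% in RT2 and 64.8% in RT3.

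**Figure D2:**
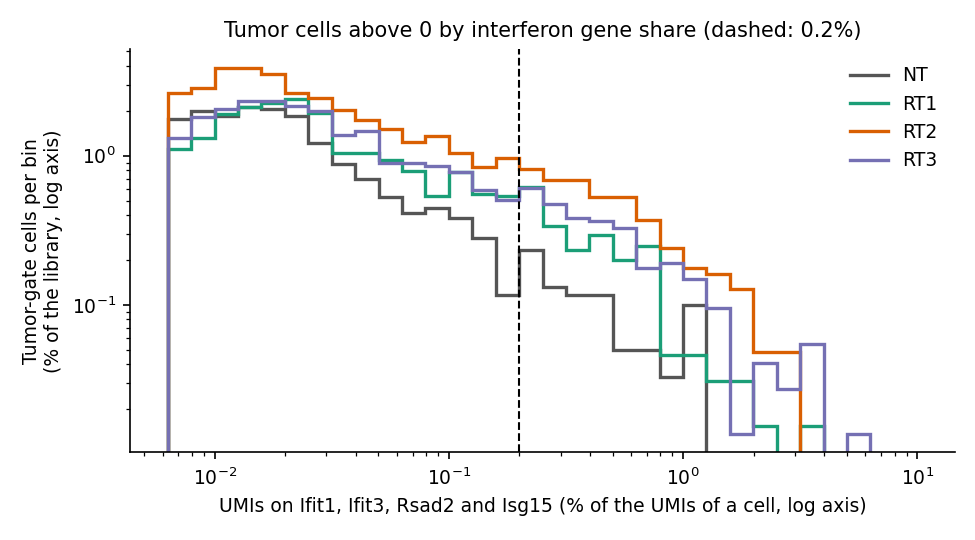
Percent of the tumor gate's cells per bin (logarithmic vertical axis) by the share of a cell's UMIs on Ifit1, Ifit3, Rsad2 and Isg15 (percent, logarithmic horizontal axis), 1 line per library, with cells at 0 left out. The dashed line marks the gate. The range runs without a gap across the limit of 0.2%, where 177 cells lay just below and 145 just above.

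The 4 defining genes were each detected in most of the interferon-induced cells, as the rule made likely. All 4 were found in 365 of the 675 cells, 3 in 243, 2 in 58 and 1 in 9. Levels here and below are UMIs per 1000000 (CPM) over the summed cells of a class, in the order NT, RT1, RT2 and RT3. Rsad2 reached 2299, 1830, 2762 and 2620 CPM in interferon-induced cells and 15.8, 21.2, 44.8 and 28.5 CPM in other tumor cells. Ifit1 reached 1080, 1581, 1527 and 1400 CPM against 5.6, 16.5, 25.5 and 15.6 CPM. In both classes the sum of the 4 genes was lowest in NT. In interferon-induced cells it was at 4554 CPM in NT and close to that in RT1, at 4638 CPM, where RT2 and RT3 reached 5337 and 5361 CPM. Over other tumor cells it ranged from 39.7 CPM in NT to 110 CPM in RT2.

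Interferon-induced cells held fewer UMIs than other tumor cells. Their median depth was 6619.5 UMIs in NT, 5757 in RT1, 7774.5 in RT2 and 5411.5 in RT3, below that of other tumor cells in each library, at 8370, 6767, 9709.5 and 7320. Median Rhox5, which the rule reads, was also lower, at 5, 7, 8 and 7 UMIs against 9, 9, 11 and 9. The share of cells with none of the 12 further immune genes was 96% in NT, 48.2% in RT1, 40.1% in RT2 and 63.6% in RT3, against 85.6%, 56.3%, 37.9% and 70.6% in other tumor cells. It was above that of other tumor cells in NT and RT2 and below it in RT1 and RT3. The part of such transcripts in the results below was not tested, except where values without these cells are given.

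The transcriptome of interferon-induced cells was then compared with that of other tumor cells of the same library. UMIs were summed per library and class and fitted with edgeR's quasi-likelihood test with the library as a block, over 12322 genes and without the 7 genes that the rule reads. At a Benjamini-Hochberg adjusted p under 0.05, 1277 genes (10.4% of those tested) were higher and 1513 (12.3%) lower, 22.6% in all, with a median log2 ratio over all genes of -0.01. Without RT2, 1006 genes were lower. Of the called genes 45.8% were higher, and with library totals alone in place of TMM scaling 1028 were higher and 2012 lower, so that 33.8% were higher. RLE factors, another scaling, turned the balance, with 1402 higher and 1317 lower (51.6% higher), and DESeq2 gave 952 higher and 855 lower. Interferon genes vary with the 4 genes of the rule in the same cells. For them the log2 ratios are a description of what the gate selected, and their counts stand beside the background of 10.4% without further reading. The counts of all other lists in this comparison stand beside the same 10.4% higher and 12.3% lower.

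The transcription factors of the pathway were higher in every tested case. Stat2 lay at 219, 109.9, 167 and 182 CPM in interferon-induced cells and at 24.5, 16.2, 33 and 23.8 CPM in other tumor cells, a log2 ratio of 2.81 ± 0.10 (SE), and the classes did not overlap. Irf9, its DNA-binding partner, differed by 1.71 ± 0.12, with its highest level of 191 CPM in NT against 86.4 to 93.6 CPM in RT. Irf7, which amplifies interferon production, lay at 43.8, 26.1, 47.1 and 42.6 CPM against 2.02, 2.56, 7.49 and 4.29 CPM. Irf1, a target of both interferon types, was abundant in both classes and differed least among these, by 0.91 ± 0.06. Of 12 listed factors 11 were tested and 11 were higher, with a median log2 ratio of 1.64.

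Of 8 tested receptors and upstream kinases 4 were higher, and the median log2 ratio was 0.38. Jak2, a kinase of the interferon gamma receptor, showed 1.38 ± 0.14, and Tyk2, Ifnar2 and Il10rb lay between 0.48 and 0.59. Ifnar1 at 30.9, 20.7, 22.4 and 20.3 CPM against 22.1, 17.1, 20.1 and 20.1 CPM did not pass the test, nor did Ifngr1, Ifngr2 or Jak1. Ifnlr1, the receptor chain for lambda interferons, had a UMI in 0 of 675 cells, which allows a share of cells with a UMI of up to 0.444% (3 counts).

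The effector genes made up the broadest block. Of 60 listed effectors 56 were tested, 55 were higher and the median log2 ratio was 2.26. Ifi27 did not pass, and Ifit1bl2 had too few counts to be tested, and Mx1, Mx2 and Ifi44l were not analysed here. Ifit3b lay at 255, 190.5, 136 and 184 CPM against 0.191, 1.42, 1.87 and 1.25 CPM, the largest ratio of this list at 7.27 ± 0.21 on the log2 scale. Ifit2, another tetratricopeptide protein, lay at 139, 160.0, 156 and 161 CPM against 3.6, 4.04, 4.27 and 3.56 CPM, and Cmpk2, a nucleotide kinase beside Rsad2 in the genome, differed by 4.84 ± 0.10. Ifit1bl1 differed by 5.73 ± 0.59 but rested on 6, 7, 9 and 20 UMIs. The most abundant effector, the membrane protein Ifitm3 that blocks viral entry, was also high in other tumor cells, at 1159 to 1522 CPM against 2152 to 2670 CPM.

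Oligoadenylate synthetases, which sense double-stranded RNA, showed the same direction in 7 of 8 tested genes, with a median of 2.48. Oasl2 lay at 423, 427, 391 and 421 CPM against 37.0, 43.3, 67.4 and 43.4 CPM. Its relative Oasl1, which restrains Irf7 translation, lay at 49.0 CPM in NT and at 204, 254 and 179 CPM in the RT libraries, against 1.90, 9.29, 12.5 and 6.45 CPM in other tumor cells. The guanylate binding proteins and immunity-related GTPases, which attack the vacuoles of intracellular pathogens, were higher in 14 of 15 tested genes with a median of 2.93. Gbp5 showed 4.17 ± 0.24 and Gbp3 3.35 ± 0.13. Iigp1 lay at 345, 295, 421 and 328 CPM against 31.3, 18.8, 83.9 and 26.1 CPM. Genes with close copies, among them the Gbp genes, Tgtp1 and Tgtp2, Oas1a and Oas1g, Apol9a and Apol9b and the H2 genes, are uncertain as single genes.

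Sensors of foreign nucleic acid were higher in 11 of 17 tested genes, with a median of 0.94. The largest ratios among them were those of the RNA sensors Dhx58 at 3.85 ± 0.29, Ddx60 at 3.57 ± 0.30, Ifih1 at 3.30 ± 0.15 and Ddx58 (RIG-I) at 2.41 ± 0.10. Tmem173 (STING), the adaptor of cytosolic DNA sensing, lay at 162, 150.2, 185 and 179 CPM against 100.1, 95.2, 102 and 108 CPM, a log2 ratio of 0.82 ± 0.08. Cgas, the DNA sensor upstream of it, lay at 10.3, 12, 6.28 and 5.72 CPM against 8.36, 6.48, 6.67 and 4.72 CPM and did not pass the test, and neither did Mavs, Aim2 or the ribonuclease H2 genes. Feedback inhibitors were higher in 8 of 9 genes with a median of 1.26. Usp18, which removes Isg15 from its targets and blocks the receptor, lay at 173, 185, 139 and 200.1 CPM against 2.45, 5.10, 7.45 and 6.45 CPM, and the cytokine signaling inhibitor Socs1 differed by 1.31 ± 0.10.

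**Figure D3:**
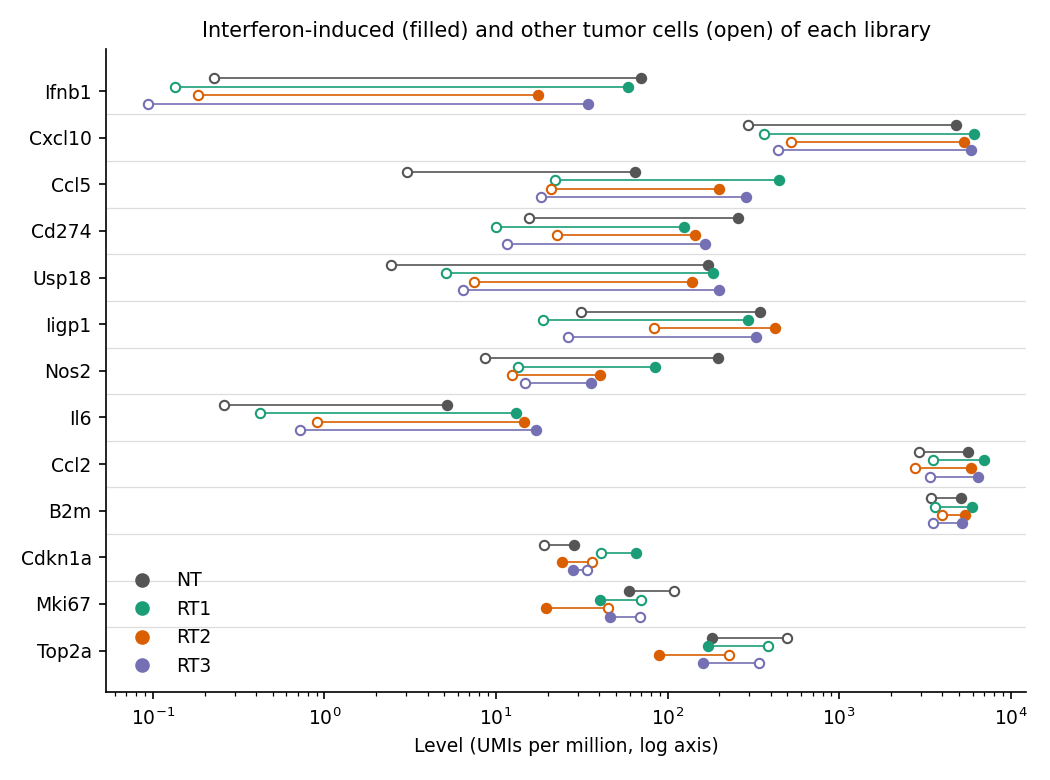
Level (CPM, logarithmic horizontal axis) of named genes in interferon-induced cells (filled) and other tumor cells (open), joined by a line for each library. Cxcl10, Usp18 and Cd274 separate the classes in all 4 libraries, and Top2a lies lower in interferon-induced cells in all 4.

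Some of the interferon-induced cells expressed Ifnb1 (ENSMUSG00000048806), which encodes interferon beta. Its level was 69.6, 58.8, 17.7 and 34.3 CPM in interferon-induced cells and 0.226, 0.135, 0.183 and 0.0937 CPM in other tumor cells, a log2 ratio of 8.01 ± 0.44. The transcript was concentrated in few cells, with 27 UMIs in 6 of 50 cells in NT, 54 in 12 of 137 in RT1, 45 in 20 of 274 in RT2 and 54 in 16 of 214 in RT3. Over all libraries 8.00% of the cells had an Ifnb1 UMI (95% Clopper-Pearson interval 6.07 to 10.3), against 33 of 25443 other tumor cells or 0.130% (0.0893 to 0.182). Interferon-induced tumor cells held 7.45% of the 2417 Ifnb1 UMIs in the 4 libraries.

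Myeloid cells held more of the Ifnb1 UMIs in sum. Of the 3955 cells in a myeloid gate with at least 2 Csf1r UMIs and no Rhox5 UMI, 205 (5.18%) had an Ifnb1 UMI, and they held 38.2% of all its UMIs. Among the 518 myeloid cells past the same 0.2% limit, 139 (26.8%) had an Ifnb1 UMI. Other tumor cells held 39 of its UMIs, and the remaining ones lay in barcodes outside both gates. Other interferon transcripts were rare in interferon-induced tumor cells. Ifna4 was found as 8 UMIs in 5 cells and Ifng as 1 UMI, and Ifna2, Ifna16, Ifnab and Ifnz had a UMI in 0 of 675 cells, which allows a share of cells with a UMI of up to 0.444% for each and does not limit the share of cells that express them.

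Interferon-induced cells with an Ifnb1 UMI had more Cxcl10 than those without in all 4 libraries. Cxcl10 was at 10132 CPM in 6 such cells of NT against 4023 CPM in the other 44, at 10777 against 5672 CPM in RT1, at 8712 against 5076 CPM in RT2 and at 10566 against 5486 CPM in RT3. Ifi47, an immunity-related GTPase, was lower in these cells, at 289 against 486 CPM in NT, 232 against 448 in RT1, 314 against 424 in RT2 and 316 against 433 in RT3. The share of UMIs on the 4 rule genes was also higher in the Ifnb1-positive cells, at a median of 0.42% against 0.35% in NT, 0.41% against 0.34% in RT1, 0.80% against 0.39% in RT2 and 0.94% against 0.38% in RT3. These values carry no test.

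Chemokine genes were higher in 9 of 11 tested cases, with a median of 1.06. Cxcl10 (ENSMUSG00000034855), which attracts T cells through Cxcr3, lay at 4785, 6128, 5358 and 5883 CPM in interferon-induced cells and at 293, 366, 526 and 439 CPM in other tumor cells, with a log2 ratio of 3.85 ± 0.08. After every cell was thinned to 2000 UMIs it was detected in 91.2% to 96.0% of interferon-induced cells and in 23.3% to 34.4% of other tumor cells. Ccl5, a T cell and monocyte attractant, lay at 64.4 CPM in NT and at 444, 199.5 and 285 CPM in RT, against 3.01 CPM and 18.2 to 21.9 CPM. The monocyte attractant Ccl2 was abundant in both classes, at 5608 to 7037 against 2781 to 3521 CPM, and differed by 1.05 ± 0.06. Cxcl9, another ligand of Cxcr3, lay at 103, 31.6, 127 and 47.0 CPM against 9.81, 4.52, 25.9 and 12.4 CPM.

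The inhibitory ligand Cd274 (PD-L1, ENSMUSG00000016496) was higher in every library. It lay at 258, 125, 144 and 164.5 CPM in interferon-induced cells and at 15.6, 9.98, 22.6 and 11.6 CPM in other tumor cells, a log2 ratio of 3.53 ± 0.13. At 2000 UMIs per cell it was detected in 38.0%, 16.1%, 20.8% and 22.4% of interferon-induced cells, against 2.1% to 4.3% of the others. The galectin Lgals9 differed by 1.78 ± 0.08 and Cd47, which restrains phagocytosis, by 0.76 ± 0.07, and 6 of 11 tested checkpoint ligands were higher, beside 10.4% of all tested genes, and 3 of 11 without the library as a block. Pdcd1lg2 (PD-L2) had a UMI in 0 of 675 cells, which allows a share of cells with a UMI of up to 0.444%.

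Antigen presentation through MHC class I was higher by smaller ratios from a high level. Of 23 tested genes 20 were higher, 2 were lower and the median was 0.78. B2m, the light chain of every class I molecule, lay at 5131, 5974, 5438 and 5171 CPM against 3437, 3640, 3960 and 3517 CPM, and H2-K1, a heavy chain, differed by 0.60 ± 0.06. The peptide transporter Tap1 differed by 1.48 ± 0.09, the nonclassical heavy chain H2-T23 by 1.71 ± 0.10 and the class I transactivator Nlrc5 by 1.55 ± 0.11. The lower genes were Calr and Canx, general chaperones of the endoplasmic reticulum, at -0.26 ± 0.07 and -0.22 ± 0.07.

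Of 8 tested class II genes 2 were higher, Ctss and Cd74, beside 10.4% of all tested genes. Macrophages express both strongly, and 0 passed without RT1, with DESeq2 or without the cells that held any of 12 immune genes. With the gate at 0.1%, 5 of 8 passed. At 2000 UMIs per cell, 6.00%, 5.84%, 19.3% and 4.67% of interferon-induced cells had a UMI of H2-Aa, H2-Ab1, H2-Eb1 or Cd74, against 7.13%, 3.64%, 12.8% and 4.88% of other tumor cells and 85.1%, 43.3%, 57.8% and 51.7% of myeloid cells. The difference within libraries was 1.84 ± 3.42 percentage points (SD, n = 4, exact sign-flip permutation test, two-sided p = 0.5). RT2 had the highest shares in both tumor classes, and there the intervals of interferon-induced cells (14.8 to 24.5) and other tumor cells (12 to 13.7) did not overlap. The smallest p that 4 libraries allow is 0.125.

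Cell cycle genes were lower in interferon-induced cells. Of 28 listed genes 27 were lower and 0 higher, beside 12.3% of all tested genes lower, and the median log2 ratio was -0.94. Top2a (ENSMUSG00000020914), the topoisomerase of S and G2 phase, lay at 180.4, 173, 88.7 and 160.1 CPM against 496, 385, 228 and 343 CPM, a log2 ratio of -1.19 ± 0.08 (adjusted p = 3.87e-18). Mki67, the proliferation antigen, lay at 59.3, 40.3, 19.6 and 46.4 CPM against 109, 69.8, 45.1 and 69.4 CPM, with -0.79 ± 0.12 (adjusted p = 3.55e-07). Aurkb, a kinase of chromosome segregation, showed -1.25 ± 0.13, Uhrf1, which maintains DNA methylation, -1.17 ± 0.11, and Birc5 (survivin) -1.14 ± 0.08. Each was lower in all 4 libraries, and under the alternatives 15 to 28 genes of the list were lower and 0 higher. Ccne2 did not pass, at 12.9, 8.71, 3.93 and 8.26 CPM against 12.4, 14.4, 10.4 and 9.82 CPM. RT2 had the lowest levels of the list in both classes, 1477 against 3307 CPM in sum, where the other libraries had 2480 to 2655 against 4213 to 4592 CPM.

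The same difference was seen cell by cell at equal depth. With every cell thinned to 2000 UMIs, 62.0%, 54.0%, 43.8% and 64.5% of interferon-induced cells held at least 2 UMIs of the cell cycle list, against 75.1%, 76.5%, 58.6% and 74.2% of other tumor cells. The difference was -15.0 ± 5.39 percentage points (SD, n = 4), lower in 4 of 4 libraries, with p = 0.125 in the two-sided exact sign-flip permutation test, the smallest p that 4 libraries allow. Without thinning it was -6.81 percentage points. Outside all lists the 8 named falls were those of Klra4, Iqgap3, Clspn, Cacna1a, Spc25, Ska3, Sgo1 and Melk, with log2 ratios from -1.58 to -1.32. Clspn is a replication checkpoint adaptor, Spc25 and Ska3 belong to the kinetochore and Sgo1 protects cohesin, whereas Klra4 belongs to a family of natural killer cell receptors. Klra4 showed the largest fall of these, at 18.0, 14.2, 6.68 and 22.2 CPM against 44.7, 43.4, 29.3 and 59.1 CPM.

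**Figure D4:**
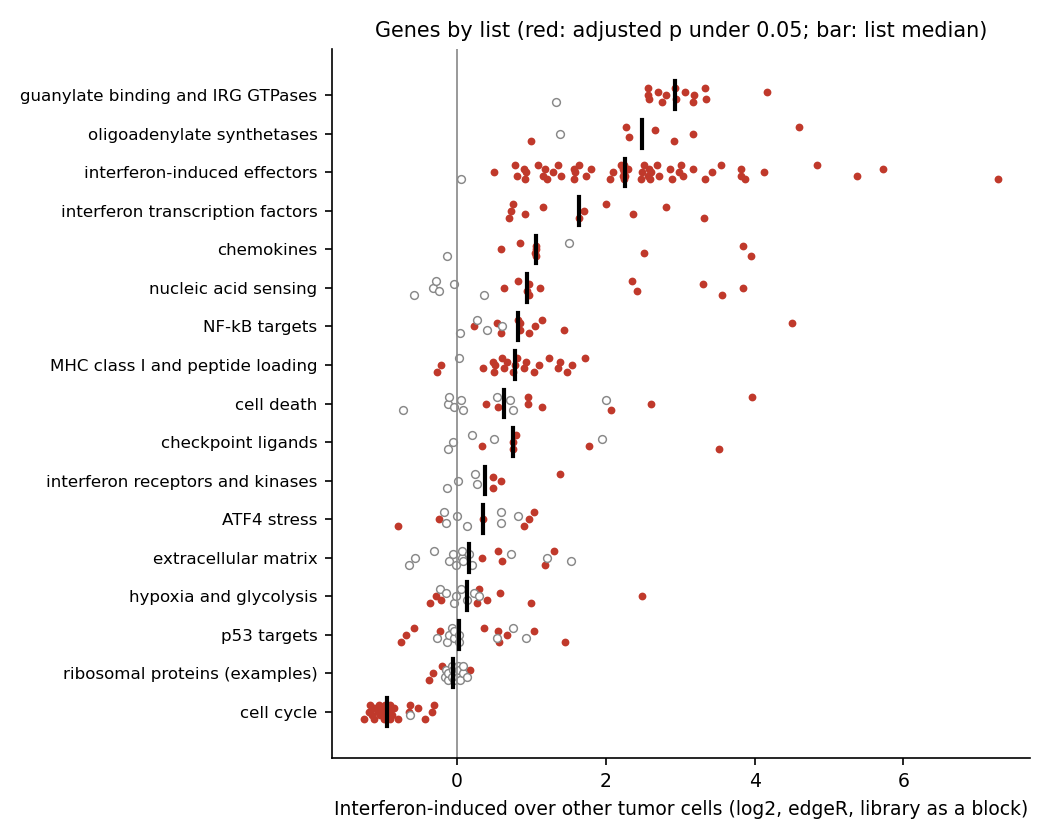
Log2 ratio of interferon-induced over other tumor cells for the tested genes of each list, 1 point per gene, filled in red at an adjusted p under 0.05 and open otherwise, with a bar at the list median. Guanylate binding and GTPase genes center on 2.93 and effectors on 2.26, and cell cycle genes on -0.94, while the median of all 12322 genes is -0.01.

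Genes of NF-kB signaling, the inflammatory transcription factor that also takes part in Ifnb1 induction, were higher in 11 of 15 tested cases and lower in 0, beside 10.4% and 12.3% of all tested genes, with a median of 0.82. Il6, an inflammatory cytokine, lay at 5.15, 13.1, 14.5 and 17.2 CPM against 0.261, 0.423, 0.899 and 0.718 CPM, with a log2 ratio of 4.50 ± 0.43 (adjusted p = 3e-12). It rested on few cells, with an Il6 UMI in 1 of 50 cells in NT, 6 of 137 in RT1, 8 of 274 in RT2 and 11 of 214 in RT3. Birc3, an inhibitor of apoptosis, showed 1.14 ± 0.16 (adjusted p = 2.16e-07). Tnf, at 5.15, 23.9, 4.71 and 15.9 CPM against 4.45, 4.21, 3.61 and 5.86 CPM, rested on RT1 and RT3. Nfkb2, Icam1, Traf1 and Sod2 did not pass. Ccl2 and Cxcl1 are members of both this list and the chemokines, and without the library as a block 5 of the 15 were higher.

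Of 18 tested genes of cell death 8 were higher and 0 lower, beside 10.4% and 12.3% of all tested genes, with a median of 0.63. Tnfsf10 (TRAIL), a death ligand, showed 3.96 ± 0.30 and Daxx, a nuclear co-regulator, 2.08 ± 0.09, at 180.4, 154, 136 and 193 CPM against 36.9 to 42.7 CPM. The inflammatory caspase Casp4 showed 1.15 ± 0.10. Pmaip1 (Noxa) was at 0 in NT and at 8.71, 4.32 and 10.8 CPM in RT against 0.608 to 1.83 CPM. The 0 in NT allows up to 7.73 CPM (3 counts), which lies within the range of RT. Casp8, Bax, Bak1 and Fas did not pass the test.

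Of 21 tested targets of p53, 6 were higher and 4 lower, beside 10.4% and 12.3% of all tested genes, with a median of 0.03. Cdkn1a (p21), the cell cycle inhibitor that p53 induces after DNA damage, lay at 28.4, 65.3, 24.3 and 27.9 CPM against 19.0, 40.9, 36.2 and 34.1 CPM, with a log2 ratio of 0.03 ± 0.15 (adjusted p = 0.926). It was higher in NT and RT1 and lower in RT2 and RT3. Mdm2, the p53 antagonist, showed 0.36 ± 0.10 and the stress gene Sesn2 1.04 ± 0.24. Gtse1 and Phlda3 were lower by -0.75 ± 0.15 and -0.68 ± 0.21. Plk2 rested on RT1, where it reached 40.3 CPM against 2.58 to 8.26 CPM in the other libraries, and its call was lost without RT1.

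Of 17 hypoxia and glycolysis genes 6 were higher and 3 lower, beside the same 10.4% and 12.3% over all genes, with a median of 0.14. Nos2, the inducible nitric oxide synthase and also an interferon target, lay at 196, 84.9, 40.4 and 35.6 CPM against 8.68, 13.5, 12.4 and 14.7 CPM, with a log2 ratio of 2.49 ± 0.22, and its level in NT exceeded that in every RT library. Adm, a vasodilator peptide, showed 1.00 ± 0.07 (adjusted p = 1.8e-16), whereas the glycolytic enzymes Ldha and Pgk1 were lower by -0.36 ± 0.06 and -0.29 ± 0.06. Of 13 ATF4 stress genes 4 were higher, among them Sesn2, Trib3 at 0.97 ± 0.23 and Atf3 at 0.90 ± 0.06, and 2 were lower, the amino acid synthesis genes Psat1 at -0.79 ± 0.10 and Asns.

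Extracellular matrix genes were higher in 5 of 19 cases and lower in 0, where all tested genes had 10.4% higher and 12.3% lower, with a median of 0.16. Islr showed 1.31 ± 0.11, Thbs1, the matrix protein thrombospondin, 1.18 ± 0.12 and Sparc 0.61 ± 0.07, while the collagens did not pass. Ribosomal protein genes had a median of -0.05 over 20 genes, with 1 higher and 3 lower. Without the library as a block the matrix list had 1 of 19 higher, the p53 targets 1 of 21, the hypoxia and glycolysis genes 3 of 17, the ATF4 stress genes 1 of 13 and the MHC class I genes 8 of 23, and none of these lists had a lower gene. Outside all lists the 8 named rises were led by Csprs at 2.99 ± 0.23, Clec2d, a ligand of an inhibitory receptor of natural killer cells, at 2.90 ± 0.26 and Ccrl2, a chemokine-binding receptor, at 2.79 ± 0.12. Gm4841, Helz2, Ccl12, Neurl3 and Znfx1 followed with 2.48 to 2.77. Of these, Ccl12 stood at 74.0 CPM in RT1 against 2.58 to 15.9 CPM in the other libraries.

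Markers of other cell types were measured in the same comparison. The macrophage and monocyte list summed to 10.3, 350.5, 115 and 167 CPM in interferon-induced cells and to 28.6, 111, 146 and 88.4 CPM in other tumor cells, so it was higher in RT1 and RT3 and lower in NT and RT2. Its most abundant gene was Lyz2, and 3 of 9 tested genes (Lyz2, C1qc and Fcer1g) were higher, beside 10.4% of all tested genes, but 0 without RT1, with DESeq2 or without the library as a block. In other settings more were called, with 4 of 9 higher without RT2, with at least 6 Rhox5 UMIs and with the 0.5% gate. The count was also 4 of 9 when the compared cells were those under 0.05% of UMIs, and it was 2 of 9 without RT3. Endothelial markers summed to 15.5, 67.5, 33 and 9.53 CPM against 19.2, 18.1, 25.6 and 18.8 CPM, and Pecam1 and Cdh5 of 4 tested were higher. Without RT1, with DESeq2 or without the library as a block 1 of 4 was called, and without the top 8% of doublet scores 0 of 3. The dendritic marker Ccr7 was higher at 34.9 CPM in RT3 against 1.18 to 4.35 CPM elsewhere, with a log2 ratio of -0.01 without RT3, and the dendritic markers Xcr1 and Clec9a were at 0.

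Of 5 tested lymphocyte markers Cd79a was higher, and Cd3d was at 0. None of the 5 was called with DESeq2, with library totals alone, without the library as a block, without NT, RT1 or RT3, or with at least 6 Rhox5 UMIs, and none of 8 without the filter on low counts. Of the neutrophil and fibroblast markers 0 of 4 and 0 of 6 were called, also with DESeq2. A neutrophil marker was higher without RT1 (1 of 4), with at least 6 Rhox5 UMIs (1 of 3) and with other tumor cells matched on UMI depth (1 of 3). Without the top 8% of doublet scores 2 of 3 neutrophil markers were higher. Of the fibroblast markers 1 of 6 was lower without NT, without RT2 or without the filter on low counts. With the 0.5% gate 1 fibroblast marker was higher and 1 lower. With the cells that held any of 12 immune genes left out of both classes, 836 genes were higher and 906 lower. The part of immune or endothelial transcripts in single gene ratios of RT1 was not tested further.

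The lists were then read along the interferon share of the cells. In tumor cells with no UMI of the 4 genes the effectors summed to 2431 to 3108 CPM over the libraries, and in those at 0.05 to 0.2%, just outside the gate, to 5038 to 6353 CPM. At 0.8% and above they summed to 9842 to 13559 CPM. Guanylate binding and GTPase genes ran from 216 to 571 CPM at 0 to 3863 to 7799 CPM at 0.8% and above, and chemokines from 7111 to 9151 CPM to 27174 to 40936 CPM. The cell cycle list ran the other way, from 3516 to 4664 CPM at 0, through 1844 to 3346 CPM at 0.05 to 0.2%, to 770 to 1599 CPM at 0.8% and above. Not every step went one way, as the RT1 cell cycle list was at 2344 CPM at 0.2 to 0.4% and at 3046 CPM at 0.4 to 0.8%, and NT chemokines at 16452 CPM at 0.05 to 0.2% and at 15447 CPM at 0.2 to 0.4%. The top bin held 8 cells in NT and 12 in RT1.

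**Figure D5:**
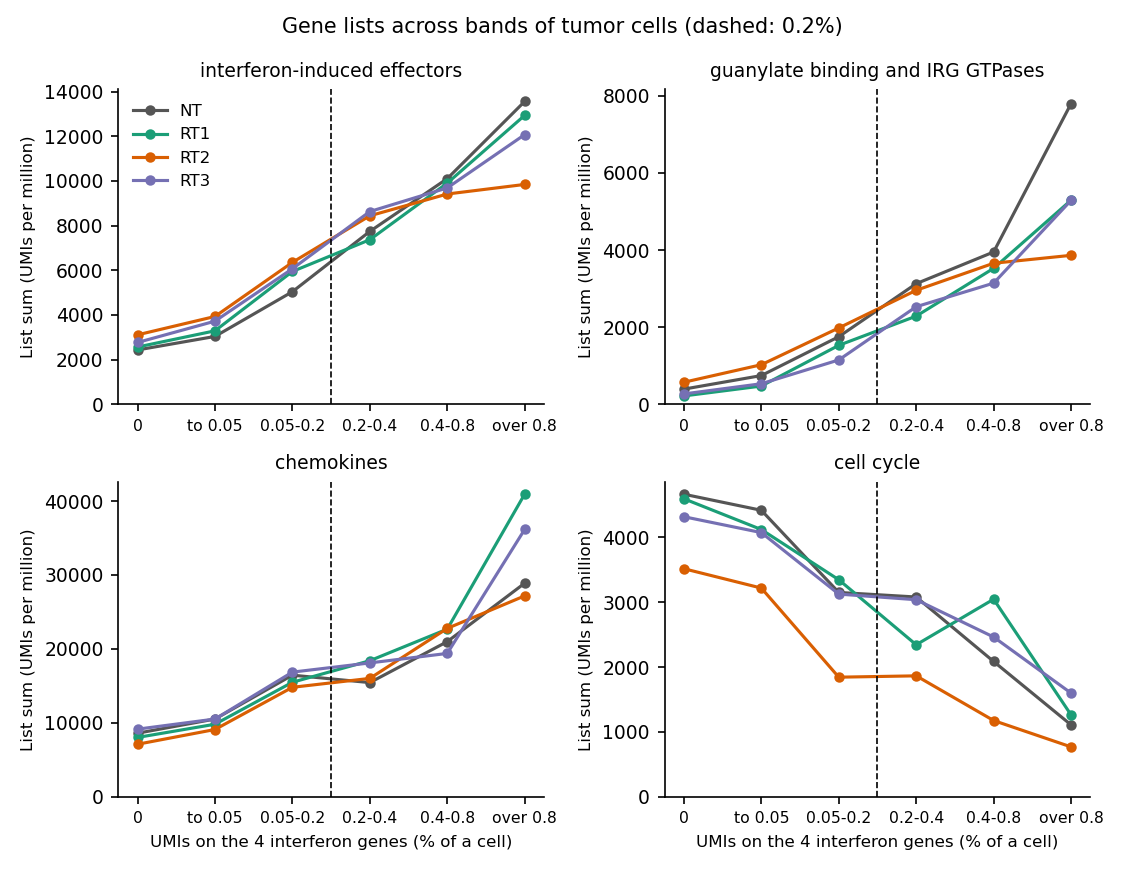
Summed level of gene lists (CPM, vertical axis) in tumor cells binned by the share of UMIs on the 4 rule genes (horizontal axis), 1 line per library. Interferon-induced effectors reach 9842 to 13559 CPM in the top bin and the cell cycle list 770 to 1599 CPM, with 8 to 50 cells per library in that bin.

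Within the interferon-induced cells, effectors and guanylate binding genes varied together. The Spearman correlation of their shares across cells was 0.66 in NT (50 cells), 0.61 in RT1 (137 cells), 0.67 in RT2 (274 cells) and 0.62 in RT3 (214 cells). The share of the 4 rule genes had correlations of 0.33, 0.22, 0.08 and 0.24 with the effectors. The gate had cut the range of that share, so these low values do not show that it is weakly related to the effectors. From the bin at 0.2 to 0.4% to that at 0.8% and above, the summed effectors rose in each library. They went from 7739 to 13559 CPM in NT, 7367 to 12935 in RT1, 8438 to 9842 in RT2 and 8629 to 12072 in RT3. These correlations are a description, since cells of 1 library share their depth and background.

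Interferon-high cells were also present among myeloid cells, which made them the nearest population for comparison. The same limit of 0.2% took 518 of 3955 myeloid cells, 55 of 221 in NT, 175 of 1393 in RT1, 201 of 1836 in RT2 and 87 of 505 in RT3. They formed 24.9% of the NT myeloid cells and, on average, 13.6% ± 3.26 (SD, n = 3) of those in RT. The difference was -11.3 percentage points, opposite in direction to the tumor cells, and this difference was not tested because NT is 1 library.

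The interferon-high difference was then compared between tumor and myeloid cells as an interaction in 1 edgeR fit over 10038 genes. It was larger in tumor cells for 194 genes (1.93%) and larger in myeloid cells for 34 (0.339%) at an adjusted p under 0.05. These counts depended on single libraries, at 47 and 7 without RT1, 112 and 13 without RT2 and 55 and 9 without RT3. Both arms were gated on the same 4 interferon genes, so for interferon genes the interactions are a description and carry no p here. Of the guanylate binding and GTPase genes 12 of 15 were on the tumor side, with a median of 1.54 on the log2 scale, beside a median of 0.10 over all genes. The effectors had 23 on the tumor side and 1 on the myeloid side of 56. On the tumor side were 6 of 11 transcription factors, 6 of 11 chemokines and 1 of 23 MHC class I genes. Effectors summed to 8964, 13616, 17408 and 11748 CPM in interferon-high myeloid cells and to 9208, 8669, 8964 and 9450 CPM in interferon-induced tumor cells. They were at 5986 to 8472 CPM in other myeloid cells and at 2588 to 3603 CPM in other tumor cells. Chemokines were at 23430 to 30022 CPM in interferon-high myeloid cells against 18861 to 21720 CPM in interferon-induced tumor cells. Guanylate binding and GTPase genes were at 2110 to 4062 against 2947 to 4020 CPM.

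Among these genes Cd274 had an interaction of 2.47 ± 0.27, Iigp1 of 2.07 ± 0.29 and Cxcl10 of 1.93 ± 0.27. Il6 had the largest of the named genes, 3.67 ± 0.46 (adjusted p = 0.000166), with a log2 ratio of 4.55 in tumor cells and 0.88 in myeloid cells in the joint fit. Its level in interferon-high myeloid cells was 23, 20.8, 16.6 and 41.5 CPM, above the 5.15 to 17.2 CPM of interferon-induced tumor cells in the same libraries. Ifnb1 had 3.53 ± 0.50, with 8.06 in tumor and 4.53 in myeloid cells, although its level in interferon-high myeloid cells was 643, 300.0, 69.7 and 546 CPM. Other myeloid cells had it at 20.2, 16.2, 4.32 and 18.6 CPM, where other tumor cells had at most 0.226 CPM.

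Nt5c3, a nucleotidase, differed in the opposite sense, with an interaction of -2.14 ± 0.23. It lay at 115, 145, 197 and 150 CPM in interferon-high myeloid cells against 53.8, 35.3, 40.2 and 48.8 CPM in other myeloid cells. In interferon-induced tumor cells it lay at 51.5, 63.1, 58.9 and 66.7 CPM against 82.0, 79.0, 63.1 and 73.3 CPM in other tumor cells, a ratio that did not pass the test. The interaction of Il6 passed with each library left out in turn.

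Within the interferon-induced cells, RT and NT were compared by size alone, since NT is 1 library with 50 such cells. A gene was counted when its log2 ratio over NT was at least 1 in the same direction in all 3 RT libraries, with at least 20 UMIs over the NT and the RT library and at least 20 CPM on the higher side. Of 6292 genes 201 (3.19%) were higher and 59 (0.938%) lower. Of the 201, 2 had no UMI in NT and 74 had 1 to 3, so that 125 rested on more than 3 UMIs in NT, and 50 were also at least 2 times higher in every RT library among other tumor cells. Of the 59, 5 were also at least 2 times lower in every RT library among other tumor cells. How many of all genes passed these limits in other tumor cells was not counted. Asked of 2 RT libraries only, the rule took 246 and 138 without RT1, 235 and 94 without RT2 and 315 and 117 without RT3. Without the cells that held any of 12 immune genes 95 were higher and 52 lower.

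Interferon genes were compared in the same way, in cells that the gate had set to a like interferon share in both groups. The effectors had a median log2 ratio of -0.16 (0.22 in other tumor cells), with 2 higher (Ifi27l2a and Lgals3bp) and 0 lower of 48, beside a median of -0.09 over all genes counted and 3.19% higher and 0.938% lower of them. The guanylate binding and GTPase genes had -0.27 with 0 of 13 past the size rule, MHC class I genes -0.05 with 1 of 23 higher and chemokines 0.20 with 1 of 9 higher. The synthetases had 0.01 (0.61 in other tumor cells) with 1 of 4 higher, which was Oasl1, at 19 UMIs in NT and at 187, 648 and 282 UMIs in RT, a log2 ratio of 2.10 ± 0.26 (SD, n = 3), and it was higher by 2.26 in other tumor cells as well. Of 8 transcription factors, with a median of -0.25, Batf2 was higher and Irf9 lower. Batf2 rested on 2 UMIs in NT, against 29, 119 and 20 in RT. Irf9 was lower in RT by -1.07 ± 0.06, and by -0.15 in other tumor cells. Nos2 was lower by -1.98 ± 0.68 in interferon-induced cells and higher by 0.64 in other tumor cells.

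Among genes with at least 1 UMI in NT, the largest rise past the size rule was that of Lyz2, a lysozyme gene of macrophages. It was at 1 UMI in NT (2.58 CPM, 95% Poisson interval 0.0652 to 14.4) and at 179, 160 and 159 UMIs in the RT libraries, and Ccl6 at 1 UMI against 110, 98 and 81. Both were also higher in other tumor cells, by 2.10 and 2.65 on the log2 scale, and the macrophage list moved with them as given above. Mmp2, a matrix metalloproteinase, was at 3 UMIs in NT and at 57, 140 and 84 UMIs in RT, with 1.53 in other tumor cells. The remaining 5 named genes, Tbcel, Snx8, C1qtnf12, Immp2l and Atpsckmt, each had 1 UMI in NT, so that their ratios are bounded only loosely.

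Among the named genes lower in RT were Acat2, Dusp8, Trmt10a, Cyp51, F8a, Gprc5a and Msmo1. Acat2, the first enzyme of the mevalonate pathway to sterols, was at 43 UMIs in NT and at 21, 45 and 37 UMIs in the much larger RT sums, a log2 ratio of -2.39 ± 0.23 (SD, n = 3) in interferon-induced cells and -1.39 in other tumor cells. The sterol synthesis enzymes Msmo1 and Cyp51 were lower by -2.03 ± 0.46 and -1.82 ± 0.26, and in other tumor cells by -1.58 and -1.83. Of 24 sterol genes, a list written after these values were seen, 8 were lower and 0 higher by the size rule. Over all genes counted 0.938% were lower and 3.19% higher, and the 8 include Acat2, Msmo1 and Cyp51. Of the 18 sterol genes with more than 3 UMIs in every library 17 lay below NT in all 3 RT libraries, among them Fdps by only -0.19. The share of all genes that did so was not counted, and the median gene lay at -0.05, -0.13 and -0.05 in RT1, RT2 and RT3. Ebp and Mvd, left out by that limit, had 2 UMIs each in NT. Ebp was at 5.15 CPM in NT and at 21.8, 28.7 and 10.8 CPM in RT, and Mvd at 5.15 CPM and at 1.09, 1.96 and 2.54 CPM. In other tumor cells 20 of 24 lay below NT in all 3 RT libraries, whereas Ebp, Pmvk and Fdps were higher in every RT library there, by 1.6, 0.52 and 0.37 in the mean. Acat2, Msmo1 and Cyp51 were lower in interferon-induced than in other tumor cells in every library, and Cyp51 lay at 137, 34.8, 34.6 and 47.6 CPM against 266, 90.2, 49.4 and 93.2 CPM. Dusp8, a phosphatase of stress kinases, Trmt10a, F8a and Gprc5a had log2 ratios of -1.97 to -1.68. The RT libraries differed from NT in pooling as well as in treatment, and these cannot be told apart here.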

How the data were processed

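The authors captured single cells in microwells (SeekOne MM kit, 3′ ends) and deposited a matrix of UMI counts per gene and barcode for each library. Per the labels, the submitters' processing notes name STAR 2.5.1b, featureCounts of Subread 1.6.4, Cell Ranger and the build GRCm39 (mm39), without their roles. The strand setting of the counting is not given in the sources used here. The 4 matrices were joined on the 18605 gene symbols of RT2. Library totals count every deposited UMI, and CPM is UMIs per 1000000 UMIs of the joined genes. The members and the gene lists were chosen with earlier results of these data known.

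Counts were summed per library and class and tested with edgeR 4.0.16 in R 4.3.3 (glmQLFit and glmQLFTest, two-sided, TMM scaling, low-count filter, Benjamini-Hochberg adjustment), with the library as a block. Same-library sums come from the same tumors, which is the source of the pairing, and p-values measure the spread between 4 libraries of 2 treatments. The 7 rule genes were left out. DESeq2 1.42.0, RLE factors, library totals, other gates and leaving out each library were the alternatives. NT against RT had no test. Shares have exact 95% Clopper-Pearson intervals, which cover counting error only, and a share of 0 has a limit of 3 counts. Doublets were not removed. Scrublet marked 0.00986% of NT barcodes, so its calls were not used, and its score served only to leave out the top 8% as an alternative. Named genes were, from each list, up to 4 called genes with the largest ratio, the 8 largest rises and 8 largest falls outside the lists with at least 20 CPM and 1 direction in all libraries, 6 interactions each way, 8 genes each way between RT and NT, and 13 genes always given. Other genes were named after their values were seen. Some genes are not reported here.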

Additional observations from a re-analysis of the deposited data

Results flagged for a closer look

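Genes whose interferon-high difference was unlike in tumor and myeloid cells were set apart by the interaction test in edgeR, adjusted over all genes tested. There were 194 on the tumor side and 34 on the myeloid side. Both arms were gated on the same 4 interferon genes. For interferon genes, Ifnb1 and Ifi213 among those named below, the interactions and their calls are therefore a description and carry no p. On the tumor side Il6 had an interaction of 3.67, Ifnb1 of 3.53, Hspb1, a small heat shock protein, of 3.08, Gm5431 of 3.07, Pdgfb, a growth factor, of 2.72 and Cd83, a marker of activated dendritic cells, of 2.70. Hspb1, Gm5431, Pdgfb and Cd83 lost the call without 1 or more libraries, and interferon-induced cells held 2, 3, 19 and 5 UMIs of Hspb1 in NT, RT1, RT2 and RT3. Of the 66 Cd83 UMIs in these cells 51 were in RT3.

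On the myeloid side were Cdc6, a replication licensing factor, at -2.36, Nt5c3 at -2.14, Ncapg2, a condensin subunit, at -1.97, Dck, a nucleoside kinase, at -1.97, Ifi213 at -1.87 and Tpst1, a tyrosine sulfotransferase, at -1.86. Cdc6, Ncapg2, Ifi213 and Tpst1 lost the call without 1 or more libraries, and Nt5c3 and Dck kept it with each library left out. Without the replicate block Hspb1, Gm5431, Pdgfb, Cd83, Cdc6 and Ncapg2 lost the call. Ifnb1 and Ifi213 also lost it, which for these interferon genes is a description only.

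The share of cells past the interferon gate was higher in all 3 RT libraries than in NT among tumor cells, by 2.31 percentage points in the mean, and lower in all 3 among myeloid cells, by -11.3 percentage points. The difference between these was not tested, because NT is 1 library.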

How the results depend on the processing

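The share difference of tumor cells between RT and NT kept its direction under every alternative run, at 3.74 percentage points with a gate of 0.1%, 0.909 with 0.5% and 1.69 to 2.83 with 1 RT library left out, and that of myeloid cells was -5.18 with 0.5%. Genes higher in interferon-induced than in other tumor cells numbered 794 with the 0.5% gate, 836 without cells carrying any of 12 immune genes and 958 to 1178 with 1 library left out. Genes lower numbered 938, 906 and 1006 to 1376 in the same settings, and 855 with DESeq2. The classes are paired by library, and without the replicate block 359 were higher and 187 lower, and the interaction calls fell to 13 and 3. Leaving out 1 library gave 47 to 230 interaction calls on the tumor side and 7 to 38 on the myeloid side, and 158 were on the myeloid side without the low-count filter. No paired analysis was possible for NT against RT because NT is 1 library.

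Genes past the size rule between RT and NT numbered 493 higher and 369 lower at 1.5-fold, 82 and 22 with at least 50 UMIs, 122 higher with the 0.1% gate, 95 higher without cells carrying any of 12 immune genes, and 235 to 315 higher and 94 to 138 lower with 1 RT library left out. The class II share difference was -0.666 percentage points without thinning.

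Of 2118 alternative values of 139 results on single genes, 1932 kept direction and call, 163 lost the call, 7 gained it and 16 turned. Those that turned were ratios of interferon-induced over other tumor cells on the log2 scale. With 1 library left out Ccr7 ranged from -0.00951 (without RT3) to 2.76, Cdkn1a from -0.27 (without RT1, and -0.02 without NT) to 0.32, F8a from -0.32 to 0.15 (without RT2) and Gprc5a from -0.42 to 0.0328 (without RT2). Cdkn1a was also -0.0338 with library totals, -0.0136 without the filter, -0.0403 with the 0.1% gate, -0.0411 with at least 6 Rhox5 UMIs, -0.22 without cells carrying any of 12 immune genes and -0.22 without the top doublet scores. F8a was 0.0191 with DESeq2. Without cells carrying any of 12 immune genes C1qtnf12 was -0.0389, Atpsckmt 0.025, Mmp2 -0.0285 and Gprc5a 0.0326. Of these, Ccr7 alone was called in the main setting. The causes were not tested. Depth limits the NT side most, where 1 UMI in interferon-induced cells is 2.58 CPM.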
